A study of Rattus norvegicus with 28 samples.

Results

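Cultured rat hepatocytes given 1 nM TCDD were set against cultured rat hepatocytes given 2 nM PeCDF, gene by gene, on 8 of the 28 arrays of the series. TCDD is 2,3,7,8-tetrachlorodibenzo-p-dioxin and PeCDF is 2,3,4,7,8-pentachlorodibenzofuran. The first is built on a dioxin ring, the second on a furan ring with an extra chlorine. All arrays labelled with either treatment were used: 4 with TCDD 1 nM and 4 with PeCDF 2 nM. Each array held RNA of treated cells in 1 dye and RNA of DMSO-treated cells of the same rat in the other, so each value is a log2 ratio of treated over DMSO cells, and the result is the difference of these ratios, TCDD 1 nM minus PeCDF 2 nM.

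The cells of every group were primary hepatocytes of the same 2 animals, adult females of the Sprague-Dawley strain called rat A and rat B, plated on Matrigel with ITS+ supplement and 0.1 uM dexamethasone. After 48 h they received compound in 0.1% DMSO for 24 h, and the RNA of 3 dishes was pooled per rat. The labels do not say whether 1 DMSO preparation served all arrays of a rat. The other groups used here were TCDD 0.01 nM, PeCDF 0.02 nM and untreated cells, and TCDF 0.1 nM and 10 nM entered the fit, each with 4 arrays. Each rat was hybridised in both dye orientations, written + where the treated RNA was in the red dye and − where it was in the green. The orientations were averaged, so n = 2 rats per group throughout, and in-text array values run rat A +, rat A −, rat B +, rat B −. The 2 pools of dishes per treatment limit the precision. The p-values rest on the spread between the 2 pools of a group, estimated over all 7 groups together, with the pairing by rat left out of the main fit.

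The TCDD 1 nM and PeCDF 2 nM arrays differed in compound, in dose and in the session in which the scans were read. Per the file headers, the TCDD and untreated arrays were read in 1 session and all PeCDF and TCDF arrays in another. For a difference between TCDD 1 nM and PeCDF 2 nM, these 3 factors cannot be told apart. Beside many of the main differences a within-session difference is therefore given, called the session step. It is TCDD 1 nM minus untreated (both session 1) less PeCDF 2 nM minus PeCDF 0.02 nM (both session 2). It cancels a constant offset between the sessions but takes different kinds of baseline for the 2 compounds.

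The aryl hydrocarbon receptor (AHR) is a transcription factor that waits in the cytosol with chaperones until a planar ligand binds it. It then enters the nucleus, pairs with ARNT and binds DNA at sites built around the core GCGTG, which switches on cytochromes of the CYP1 family and other enzymes of foreign-compound metabolism. In liver, strong AHR agonists are also known to lower genes of glucose, lipid and bile acid metabolism. In the toxic equivalency scheme used for dioxin-like compounds TCDD is the benchmark and PeCDF carries a lower weight.

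All 10 hepatocyte markers on the array gave signals well above background on all 16 channels of the 8 arrays. Markers of other liver cells were detected as well: 11 of 11 for Kupffer cells and leukocytes, 7 of 7 on the array for stellate cells, 4 of 5 for endothelial cells and 4 of 5 for cholangiocytes were well above background on all 16 channels. None of these 28 non-hepatocyte markers passed the test between the compounds, with differences from −0.56 to 0.08 for Kupffer cell markers, −0.41 to 0.24 for stellate, −0.10 to 0.08 for endothelial and −0.31 to 0.06 for cholangiocyte markers. In bulk RNA, fewer cells of a type and less RNA per cell cannot be told apart.

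Of 34831 genes tested, 295 (0.847%) differed between TCDD 1 nM and PeCDF 2 nM, 156 (0.448%) higher and 139 (0.399%) lower with TCDD, by limma at a Benjamini-Hochberg adjusted p under 0.05. A gene symbol was matched for 15244 of the genes tested and for 162 of the calls. Of these 162 calls, 69 were higher and 93 lower with TCDD. The genes that were higher with TCDD included the growth factor gene Ereg, the AHR target Cyp1b1 and the transcription factor gene Pou3f1. The genes that were lower with TCDD included the glucose metabolism genes Pfkfb1, Gckr and Slc37a4, the lipoprotein lipase inhibitor gene Angptl4, and Cdo1, the gene of cysteine dioxygenase. Sizes were moderate: 37 of the higher and 39 of the lower genes passed 1.5-fold, and 4 and 1 passed 2-fold. The 4 TCDD arrays lay wholly above the 4 PeCDF arrays in 2204 genes (6.4%) and wholly below in 2506 (7.27%) of 34449. The median difference over all genes was 0.00 and 50.2% of genes lay above 0. At an unadjusted p under 0.05 there were 5186 genes.

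The count of calls moved with the rats and groups in the fit. It was 774 without rat A, 18 without rat B, 2295 and 6 without the TCDD values of rat A and of rat B, 6 and 89 without the PeCDF values of rat A and of rat B, and 128 without TCDF 10 nM, 1 of whose arrays had a narrower spread of ratios than any other array. With the rat as a paired block it was 428 (241 higher, 187 lower). Agilent's own ratios gave 7, and a fit of the 2 groups alone gave 0 by limma, with 3760 genes at an unadjusted p under 0.05. Of the 49 named calls, all kept their direction in every such fit that gave a value. These calls were chosen among genes whose arrays did not overlap between the compounds, so leaving out rats could not turn their direction. They passed the threshold in 31 cases without rat A, 6 without rat B, 48 and 3 without the TCDD values of rat A and of rat B, 3 and 15 without the PeCDF values of rat A and of rat B, 29 without TCDF 10 nM and 3 with Agilent's ratios.

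Set against DMSO, TCDD 1 nM called 3677 genes (10.6%), of which 1614 were higher (4.63%) and 2063 lower (5.92%). PeCDF 2 nM called 1530 genes (4.39%), 600 higher (1.72%) and 930 lower (2.67%). The 156 genes higher with TCDD had a median log2 ratio over DMSO of 0.38 with TCDD and −0.08 with PeCDF. The 139 lower genes had medians of −0.58 with TCDD and −0.13 with PeCDF. These ratios make up the difference and may share DMSO RNA, so they describe the called genes and test nothing further.

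The largest difference among named genes was in Ereg, which encodes epiregulin, a secreted ligand of the EGF receptor. Its log2 ratios over DMSO were 3.07, 2.99, 2.33 and 2.77 on the TCDD arrays, against 1.58, 1.46, 0.65 and 0.59 on the PeCDF arrays. All 4 TCDD arrays lay above all 4 PeCDF arrays, and rat A was above rat B with both compounds. Such non-overlap was a condition of the rule that chose the named calls, here and below, so it adds no support to a call. The means were 2.79 ± 0.18 with TCDD and 1.07 ± 0.18 with PeCDF (SE), a difference of 1.72 ± 0.25 or 3.29-fold (limma adjusted p = 0.0209, 95% interval 1.16 to 2.27). The session step was 1.70. Without the TCDD values of rat B the difference was 1.96 and did not pass (adjusted p = 0.0749), and with Agilent's own ratios it was 1.18 and did not pass. Of the 11 genes tested of the EGF receptor and its ligands, Ereg was the member called. Calls in this and every later list are to be read against 0.448% higher and 0.399% lower calls over all genes. The lists were written with earlier results of these data known, so their counts are a description. Areg, the gene of amphiregulin, another ligand of this receptor, had 2.60, 2.65, 2.22 and 2.39 with TCDD, against 1.62, 1.46, 0.37 and 0.51 with PeCDF, and its difference of 1.48 ± 0.32 did not pass (adjusted p = 0.0666 by limma). Its arrays did not overlap between the compounds. The list's median difference was 0.04, against 0.00 over all genes, and Egfr itself differed by −0.13.

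**Figure D1:**
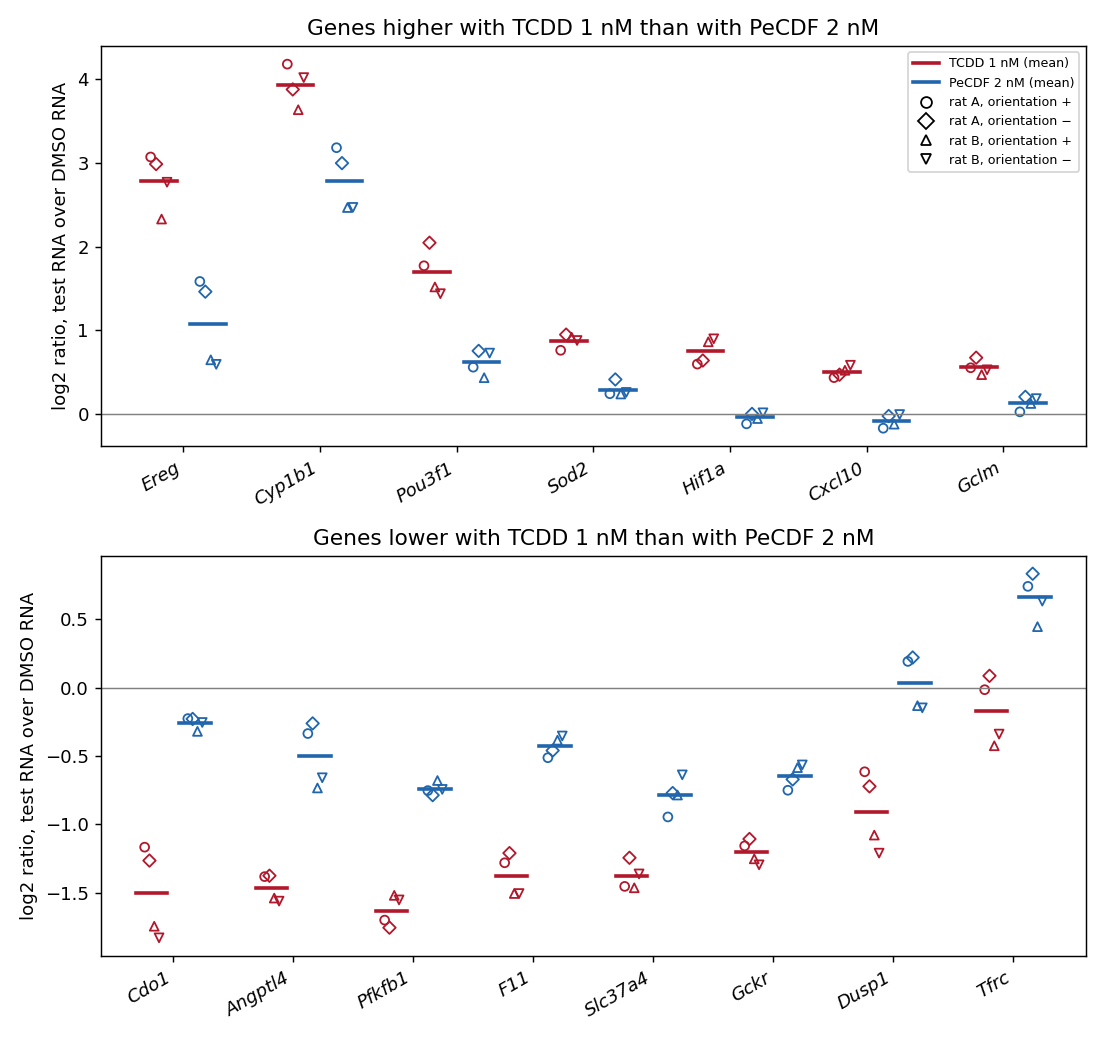
Log2 ratio of treated over DMSO cells on each array for 7 genes higher (top) and 8 genes lower (bottom) with TCDD 1 nM (red, left) than with PeCDF 2 nM (blue, right). Symbols give rat and dye orientation and bars the group means; Ereg has a mean of 2.79 with TCDD and 1.07 with PeCDF, and Pfkfb1 of −1.63 and −0.74.

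Cyp1b1, a cytochrome that oxidises oestrogens and polycyclic hydrocarbons and a classical AHR target, was the 1 member of the AHR battery called between the compounds, of 12 tested. Its promoter is shown because it holds the AHR core motif GCGTG, searched on both strands as GCGTG and CACGC and set in capitals. The stretch is chr6:21094315-21094614 on the + strand of GRCr8 (RefSeq), 250 bases before to 50 after the annotated start.
Cyp1b1: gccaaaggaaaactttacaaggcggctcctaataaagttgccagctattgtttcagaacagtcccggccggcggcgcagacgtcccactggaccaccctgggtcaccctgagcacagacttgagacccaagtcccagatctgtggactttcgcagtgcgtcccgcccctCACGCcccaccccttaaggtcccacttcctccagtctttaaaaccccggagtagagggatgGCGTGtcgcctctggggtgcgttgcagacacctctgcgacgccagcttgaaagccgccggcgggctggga
The 2 matches begin at −81 and −20, counted from 0 at the annotated start. Cyp1b1 log2 ratios were 4.18, 3.88, 3.64 and 4.02 with TCDD, against 3.18, 3.00, 2.47 and 2.47 with PeCDF. Every TCDD array lay above every PeCDF array. The difference was 1.15 ± 0.21, or 2.22-fold (limma adjusted p = 0.0425, interval 0.68 to 1.62), with a session step of 1.19. A second Cyp1b1 probe differed by 1.06. The call was lost without rat B, without 1 animal of either group in 3 of the 4 cases and without the TCDF 10 nM arrays (adjusted p = 0.071); the difference without the PeCDF values of rat A was 1.46 and without those of rat B 0.84. With Agilent's own ratios it was 0.68 and did not pass (adjusted p = 0.529).

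The rest of the AHR battery, the genes most often used as readouts of receptor activation, did not pass the test between the compounds. Against DMSO, 11 of the 12 battery genes were called higher with TCDD and 8 with PeCDF, against 4.63% and 1.72% of all genes. The list was compiled with this response known. Cyp1a1, the most inducible of the cytochromes, was saturated on all 8 arrays, so no difference can be given. Cyp1a2, the hepatic sister cytochrome, had 1.62, 1.68, 1.70 and 2.26 with TCDD, against 1.71, 1.87, 1.75 and 1.87 with PeCDF. These values overlapped, with 1 TCDD array above the others, and differed by 0.01 ± 0.17 (95% interval −0.37 to 0.40). The probe was saturated on 3 of the 4 treated channels of each group, and an unsaturated second probe differed by 0.09. By that probe the rats went opposite ways, with 2.80 in rat A and 1.78 in rat B with TCDD, against 2.37 and 2.02 with PeCDF.

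In several enzymes of the battery the rats lay far apart. Nqo1, the quinone reductase, had 2.14, 1.89, 1.09 and 1.05 with TCDD, against 1.66, 1.43, 1.77 and 1.61 with PeCDF. Its difference of −0.07 ± 0.26 (interval −0.65 to 0.50) averaged a positive difference in rat A and a negative one in rat B. Ugt1a6, a glucuronosyltransferase for phenols, had 1.36, 1.14, 0.37 and 0.33 with TCDD, against 1.27, 1.06, 1.13 and 0.94 with PeCDF, a difference of −0.30 ± 0.25 (interval −0.85 to 0.26). Here too the rats went opposite ways, as they did for Ugdh, which makes the UDP-glucuronic acid these enzymes use (0.02 ± 0.13, interval −0.27 to 0.32). Aldh3a1, an aldehyde dehydrogenase, had 1.79, 1.80, 2.61 and 2.95 with TCDD, against 0.49, 0.19, 2.11 and 2.03 with PeCDF. Its 1.08 ± 0.51 spanned an interval of −0.06 to 2.22 (limma adjusted p = 0.366), and rat B was high with both compounds.

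Tiparp, a mono-ADP-ribosyltransferase that dampens AHR signalling, had 2.34, 2.55, 1.16 and 1.28 with TCDD, against 1.76, 1.97, 1.08 and 1.28 with PeCDF. The difference of 0.31 ± 0.35 had an interval of −0.47 to 1.08. Nfe2l2, which encodes the oxidative stress factor NRF2, had 1.17, 1.37, 1.15 and 1.32 with TCDD, against 0.49, 0.76, 0.52 and 0.71 with PeCDF. Its arrays did not overlap, and 0.64 ± 0.13 (interval 0.34 to 0.93) had an adjusted p of 0.0602 by limma. Gsta2, a glutathione transferase, differed by 0.53 ± 0.33, the amino acid transporter gene Slc7a5 by 0.15 ± 0.09 and Cyp2s1 by 0.09 ± 0.05. The 11 battery genes other than Cyp1a1, with Cyp1a2 saturated in part, had a median difference of 0.15, 9 above 0 and 2 below, against 0.00 over all genes. Of the 9 genes of the receptor complex and its chaperones none was called, with Ahr at 0.02 and Arnt at −0.20.

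**Figure D2:**
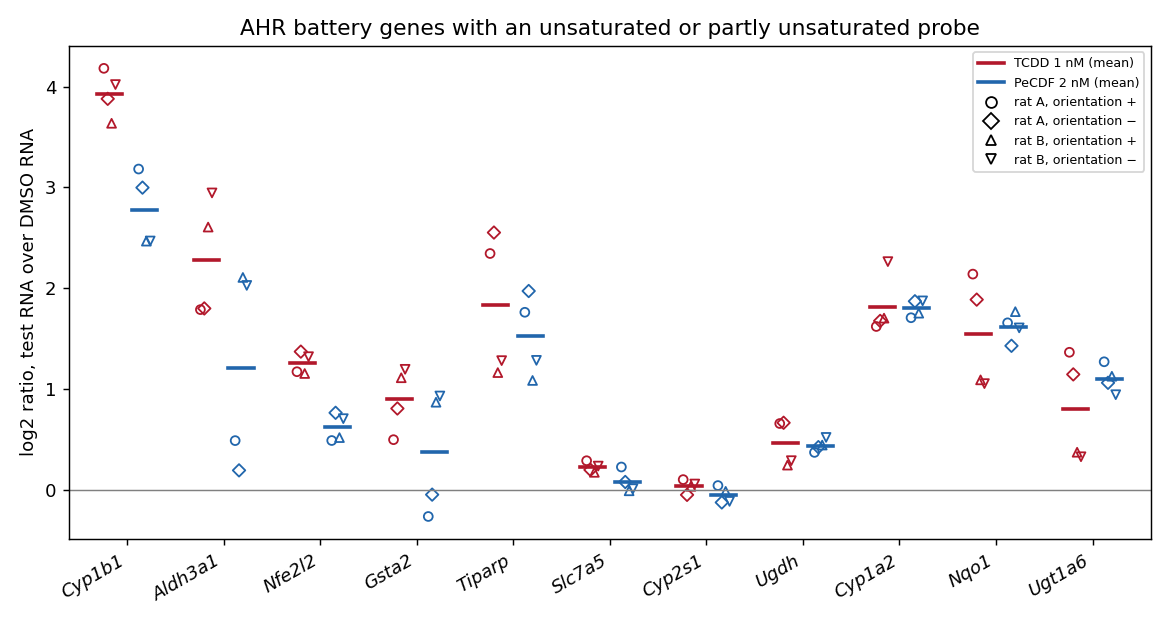
Log2 ratio of treated over DMSO cells on each array for 11 AHR battery genes, TCDD 1 nM (red, left) beside PeCDF 2 nM (blue, right), with bars at the group means. Cyp1b1 is separated between the compounds (difference 1.15), Cyp1a2 overlaps (0.01), and for Nqo1 and Ugt1a6 the rats lie on opposite sides.

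Pou3f1, a POU-domain transcription factor best known from nerve-sheath cells, had 1.77, 2.05, 1.52 and 1.44 with TCDD, against 0.56, 0.75, 0.43 and 0.73 with PeCDF. No array overlapped. The difference was 1.08 ± 0.11, or 2.11-fold (limma adjusted p = 0.00662), with a session step of 1.03. Of 21 alternatives, 8 lost the call, Agilent's own ratios and the fit without the PeCDF values of rat A (adjusted p = 0.0503) among them. The difference ranged from 0.45, with no background correction, to 1.29.

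Sod2, the mitochondrial superoxide dismutase and a target of NF-kB, had 0.76, 0.95, 0.92 and 0.88 with TCDD, against 0.24, 0.41, 0.24 and 0.26 with PeCDF. The PeCDF array at 0.41 stood apart from the other 3, yet lay below every TCDD array. Sod2 was higher with TCDD by 0.59 on the log2 scale (0.59 ± 0.09, limma adjusted p = 0.025, session step 0.44). Cxcl10, a chemokine that draws T cells, had 0.43, 0.47, 0.52 and 0.58 with TCDD, against −0.17, −0.03, −0.12 and −0.01 with PeCDF. Cxcl10 was higher with TCDD by 0.58 ± 0.10 (limma adjusted p = 0.0387, session step 0.44). In the list of chemokines and NF-kB pathway genes, 1 of 20 was called higher and 0 lower, with 17 above 0 and a median of 0.09, against 0.00 over all genes. Other members were farther apart but less even between the rats. Cxcl2, a neutrophil chemokine, had 2.56, 2.55, 1.29 and 1.24 with TCDD, against 1.43, 1.31, 0.14 and 0.09 with PeCDF (1.17 ± 0.55, adjusted p = 0.362). Map3k8, a kinase upstream of ERK, differed by 1.19 ± 0.29, Cxcl3 by 0.77 ± 0.20 and Nfkb1 by 0.59 ± 0.14, none passing, and a second Nfkb1 probe differed by 0.16. The Kupffer cell markers ranged from −0.56 to 0.08 and their part in these values was not tested.

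Gclm, the modifier subunit of the enzyme that limits glutathione synthesis, had 0.55, 0.67, 0.47 and 0.53 with TCDD, against 0.02, 0.20, 0.12 and 0.18 with PeCDF. It was higher with TCDD by 0.42 ± 0.08 (limma adjusted p = 0.0468), the 1 call of 22 NRF2 target genes, whose median was −0.03. With the rat as a paired block the Gclm call was lost (adjusted p = 0.0517). Zmat3, a p53 target that binds RNA, was higher by 0.50 ± 0.09 (adjusted p = 0.0424), the 1 call of 21 p53 pathway genes. Among immediate-early genes 1 of 21 was higher and 1 lower: Jund, an AP-1 subunit, by 0.58 ± 0.08 (adjusted p = 0.0177), and Dusp1, described with the lower genes.

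For some of the higher genes the array carries further probes, and in most of these genes they differed by less than 0.5 times as much as the probe used. The probe used was the brightest that passed the filter. Of the 30 higher genes with other probes, 17 had other probes with a median of the same sign and 5 of at least 0.5 times the size; the medians were 0.50 for the probe used and 0.02 for the others. Of the 23 lower genes with other probes, 20 had the same sign and 17 at least 0.5 times the size, with medians of −0.44 and −0.51. Among named higher genes, Ereg, Pou3f1, Sod2, Cxcl10, Hypk, Kpna1, Ptprf and Usp42 each had 1 probe that passed the filter, so none could be compared. Whether probes of the same gene differ in the transcript they read was not tested.

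**Figure D3:**
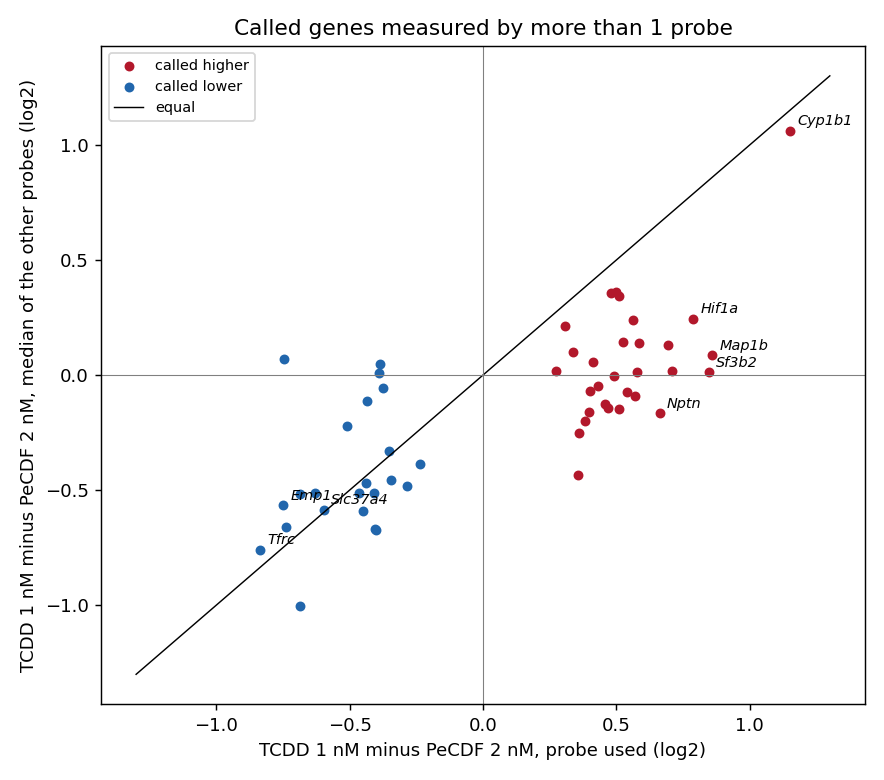
Difference, TCDD 1 nM minus PeCDF 2 nM (log2), of the probe used (x axis) against the median of the gene's other probes (y axis), 1 point per called gene. Of the 23 lower genes 17 have other probes at 0.5 times the size or more, with medians of −0.44 and −0.51, and many of the 30 higher genes lie near 0 on the y axis, with medians of 0.50 and 0.02.

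Hif1a, the oxygen-regulated partner of ARNT, had 0.60, 0.64, 0.86 and 0.90 with TCDD, against −0.12, 0.00, −0.06 and 0.01 with PeCDF. It was 1.73-fold higher by the probe used (0.79 ± 0.11, limma adjusted p = 0.0181, session step 0.58), while a second probe differed by 0.25. Map1b, a microtubule-binding protein gene, was higher by 0.86 ± 0.16 (adjusted p = 0.0451, 1 PeCDF array apart from the rest), while 3 other probes differed by 0.02, 0.09 and 0.10. Sf3b2, a splicing factor subunit gene, was higher by 0.85 ± 0.14 (limma adjusted p = 0.03, session step 0.53). It had 1 TCDD array apart from the rest, and a second probe differed by 0.01. The lipid flippase gene Atp11a was higher by 0.71 ± 0.07 with a second probe at 0.02, and the adhesion protein gene Nptn by 0.66 ± 0.09 with other probes at −0.27 and −0.06. The Nptn session step was 0.16. Jund had a second probe at 0.01, and the zinc finger factor gene Hivep1 (0.59 ± 0.08) one at 0.14. Idi1, the isopentenyl diphosphate isomerase of cholesterol synthesis, was higher by 0.56 ± 0.10 with a session step of 0.15 and a second probe at 0.24.

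The remaining named higher genes were Hypk, whose product binds the N-terminal acetyltransferase complex (0.69 ± 0.09), the nuclear import receptor gene Kpna1 (0.65 ± 0.10), the receptor phosphatase gene Ptprf (0.61 ± 0.11) and the deubiquitinase gene Usp42 (0.59 ± 0.08). On all 4, the TCDD arrays lay between 0.18 and 0.68 and the PeCDF arrays between −0.38 and 0.02. Each was above DMSO with TCDD and near or below it with PeCDF. The session steps were 0.49 for Hypk, 0.40 for Kpna1, 0.57 for Ptprf and 0.29 for Usp42.

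Glucose metabolism held the most calls of any list, all lower with TCDD: 7 of 22 genes tested fell and none rose, against 0.399% lower calls over all genes. Of the 15244 genes tested with a symbol, 93 were called lower. The list was written with earlier results of these data known, so its count is a description. The list's median difference was −0.40, and 18 of 22 lay below 0. Over the alternative fits, 0 to 11 of the 22 were called, 1 to 8 where rats were left out. Against DMSO, 15 of the 22 were lower with TCDD and 10 with PeCDF, against 5.92% and 2.67% of all genes. Pfkfb1, the liver enzyme that makes and removes fructose 2,6-bisphosphate, had 1 of the 2 smallest adjusted p-values of the whole table. Its log2 ratios were −1.70, −1.75, −1.52 and −1.55 with TCDD, against −0.75, −0.79, −0.68 and −0.74 with PeCDF. The 4 arrays of each compound lay close together and far from the other 4. The means were −1.63 ± 0.04 with TCDD and −0.74 ± 0.04 with PeCDF (SE), and Pfkfb1 was 1.85-fold lower with TCDD (−0.89 ± 0.06, limma adjusted p = 0.00102, interval −1.03 to −0.75). The session step was −1.14 (adjusted p = 0.00437). The promoter is shown for comparison with that of Cyp1b1; it is chrX:22941926-22942225, + strand of GRCr8 (RefSeq), and held no match to GCGTG on either strand.
Pfkfb1: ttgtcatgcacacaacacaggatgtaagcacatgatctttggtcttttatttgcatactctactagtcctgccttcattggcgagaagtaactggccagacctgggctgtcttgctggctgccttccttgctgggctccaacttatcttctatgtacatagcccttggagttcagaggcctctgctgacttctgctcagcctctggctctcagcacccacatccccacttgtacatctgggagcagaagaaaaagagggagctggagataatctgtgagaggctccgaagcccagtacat

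Gckr, the regulator that holds glucokinase in the nucleus, had −1.16, −1.11, −1.25 and −1.29 with TCDD, against −0.75, −0.67, −0.59 and −0.57 with PeCDF (−0.56 ± 0.08, adjusted p = 0.0192, session step −0.85). Slc37a4, which carries glucose 6-phosphate into the endoplasmic reticulum for release as glucose, had −1.45, −1.24, −1.46 and −1.36 with TCDD, against −0.95, −0.77, −0.79 and −0.64 with PeCDF (−0.60 ± 0.10, adjusted p = 0.0293). For both genes the rats lay close together, and the lack of overlap between the compounds was a condition of their choice.

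Further calls of the list, named after their values were seen, were Gys2, liver glycogen synthase, at −0.46 ± 0.09 (limma adjusted p = 0.0468), Tkfc, the triokinase of fructose breakdown, at −0.44 ± 0.08 (adjusted p = 0.0451) and Fbp1, the fructose bisphosphatase of gluconeogenesis, at −0.40 ± 0.08 (adjusted p = 0.0468). Other probes went the same way for Slc37a4 (−0.58), Gys2 (−0.51) and Fbp1 (−0.67). Among members not called, Slc2a2, the liver glucose transporter, differed by −0.75 ± 0.21, and Pgm1, phosphoglucomutase, by −1.04 ± 0.35 with rat B much lower than rat A. Both the hepatocyte markers as a list (10 tested, 2 called, −0.76 to −0.02) and this list lay mostly below 0. Among these markers Alb, Tf and Fgb were saturated, so no difference can be read from them. The part of hepatocyte content in the values of the glucose list was not tested.

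The list of fatty acid oxidation genes and targets of PPARA, a receptor for fatty acids, gave 3 lower calls of 28 tested and none higher, against 0.399% lower calls over all genes. Its median was −0.28, against 0.00 over all genes, and 24 of 28 lay below 0. The lists that follow are to be read against the same shares and median. Angptl4, a secreted inhibitor of lipoprotein lipase, had −1.38, −1.37, −1.54 and −1.56 with TCDD, against −0.34, −0.26, −0.73 and −0.66 with PeCDF (−0.97 ± 0.12, adjusted p = 0.0177, session step −0.89). Every TCDD array lay below every PeCDF array. Fgf21, a hormone of the fasted liver, was lower, at −0.54 ± 0.09 (adjusted p = 0.0286). Bdh1, an enzyme of ketone body formation, did not pass at −0.39 ± 0.08 (adjusted p = 0.0576).

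Fatty acid synthesis gave 1 lower call of 22, Scd, the stearoyl-CoA desaturase, at −0.55 ± 0.11 (limma adjusted p = 0.0498), with a list median of −0.20. Fasn, fatty acid synthase, had −1.85, −2.02, −1.79 and −1.96 with TCDD, against −1.65, −1.72, −1.17 and −1.20 with PeCDF, and −0.47 ± 0.41 did not pass (adjusted p = 0.7). Acly, which supplies cytosolic acetyl-CoA, differed by −0.62 ± 0.21 and did not pass. Cholesterol synthesis gave 1 call each way of 25, Idi1 higher and Insig2 lower, with a median of 0.03. Insig2, which retains the SREBP machinery in the endoplasmic reticulum, had −0.14, −0.22, −0.12 and −0.17 with TCDD, against 0.33, 0.27, 0.21 and 0.19 with PeCDF, so the compounds lay on either side of DMSO (−0.41 ± 0.07, adjusted p = 0.0356, session step −0.20, second probe −0.51).

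In the bile acid list, all 24 genes tested lay below 0, with a median of −0.21, and 1 passed. That gene was Abcb4, the canalicular pump that puts phosphatidylcholine into bile. Its log2 ratios were −0.82, −0.80, −0.81 and −0.93 with TCDD, against −0.37, −0.31, −0.31 and −0.29 with PeCDF, and the difference was −0.52 ± 0.06 (limma adjusted p = 0.0152, session step −0.65). One TCDD array, −0.93, stood apart from the other 3. The Abcb4 promoter, chr4:26164096-26164395 on the − strand of GRCr8 (RefSeq), is shown because a gene that fell holds 4 matches to GCGTG or CACGC, at −62, −15, 6 and 11 relative to the start, in capitals.
Abcb4: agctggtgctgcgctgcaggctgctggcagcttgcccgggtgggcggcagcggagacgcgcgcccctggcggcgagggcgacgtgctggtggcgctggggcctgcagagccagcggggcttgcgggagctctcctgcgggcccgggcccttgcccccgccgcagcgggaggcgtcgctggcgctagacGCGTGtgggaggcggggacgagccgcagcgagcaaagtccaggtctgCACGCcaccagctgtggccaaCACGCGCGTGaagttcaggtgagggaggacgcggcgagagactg
Cyp7a1, the rate-limiting enzyme of bile acid synthesis, had −1.86, −1.86, −2.18 and −2.31 with TCDD, against −1.71, −1.49, −1.34 and −1.29 with PeCDF, and −0.59 ± 0.50 did not pass (adjusted p = 0.681). The bile acid receptor gene Nr1h4 differed by −0.68 ± 0.17, the sterol 27-hydroxylase Cyp27a1 by −0.57 ± 0.12 and the bile salt pump Abcb11 by −0.51 ± 0.12, none of which passed.

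Motif matches in promoters were frequent everywhere, so the sequences above are a description. At least 1 match to GCGTG or CACGC stood in 29.7% of all 33469 promoters of the RefSeq table and in 41.7% of the 12105 promoters of genes tested. Among genes called higher with TCDD 23 of 54 (42.6%) held one, and among genes called lower 38 of 74 (51.4%).

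Among 25 constitutive cytochromes P450 1 was called, Cyp4f4, an omega-hydroxylase of leukotrienes and fatty acids, at −0.69 ± 0.11 (limma adjusted p = 0.0271). Cyp4a8, a fatty acid omega-hydroxylase, had −0.61, −0.71, −0.96 and −1.0 with TCDD, against 0.09, 0.02, −0.10 and −0.12 with PeCDF, so that the PeCDF arrays lay at DMSO (−0.79 ± 0.12, adjusted p = 0.0239).

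The list of UDP-glucuronosyltransferases and sulfotransferases, which also holds the battery gene Ugt1a6, gave 1 call of 19, Ugt2a1, at −0.43 ± 0.08 (limma adjusted p = 0.0468), with a list median of −0.43 and 15 of 19 below 0. Larger differences in the list did not pass: Ugt2a3 −1.14 ± 0.27, Ugt1a1, the bilirubin transferase, −1.09 ± 0.29, and Ugt2b15 −1.04 ± 0.26. In each the TCDD values of rat B lay well below those of rat A, and a second Ugt2b15 probe differed by 0.10, the opposite way. Of 17 CAR and PXR targets, 1 was called, Nr1i2, which encodes PXR, the receptor for many drugs (−0.38 ± 0.07, adjusted p = 0.0425, session step −0.40, 1 PeCDF array apart from the rest), and the list's median was −0.27.

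Klkb1, plasma prekallikrein, was lower, at −0.83 ± 0.13 (limma adjusted p = 0.0249) and F11, coagulation factor XI, at −0.95 ± 0.13 (adjusted p = 0.0179), with log2 ratios of −1.28, −1.21, −1.5 and −1.5 with TCDD, against −0.51, −0.46, −0.38 and −0.35 with PeCDF. Apcs, serum amyloid P, had −0.79, −0.79, −0.92 and −0.92 with TCDD, against −0.25, −0.22, −0.10 and 0.00 with PeCDF. It was lower, at −0.72 ± 0.11 (adjusted p = 0.0232), and was 1 of the 2 calls of 25 acute phase genes, both lower. The most abundant secreted proteins, among them Alb, Tf and Fgb, were saturated, so medians were taken over unsaturated members: −0.18 for 19 acute phase genes and −0.19 for 28 hepatocyte genes. Crp, C-reactive protein, and F9, coagulation factor IX, differed by −1.17 ± 0.34 and −0.96 ± 0.22 and did not pass.

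The largest lower difference of a named gene was in Cdo1. This gene, which encodes the cysteine dioxygenase of taurine and sulfate formation, had −1.17, −1.26, −1.74 and −1.83 with TCDD, against −0.23, −0.23, −0.32 and −0.26 with PeCDF. It was 2.37-fold lower with TCDD (−1.24 ± 0.23, limma adjusted p = 0.0419, interval −1.74 to −0.74, session step −0.94), and under TCDD rat B was lower than rat A. Tdo2, the tryptophan dioxygenase of the liver, had −0.29, −0.53, −0.46 and −0.62 with TCDD, against 0.52, 0.16, 0.19 and −0.04 with PeCDF (−0.68 ± 0.09, adjusted p = 0.0177). Arg1, the urea cycle arginase, was called at −0.71 ± 0.14 (limma adjusted p = 0.0468), but its arrays overlapped: −0.88, −0.46, −1.24 and −0.82 with TCDD, against −0.41, 0.25, −0.76 and 0.38 with PeCDF, split by dye orientation in both groups. In each session the + arrays were read on 1 day and the − arrays on another, so orientation and day cannot be told apart. Tdo2 and Arg1 were among the 3 calls of 32 genes in the list of hepatocyte secreted and metabolic proteins, all lower.

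Regulators and other genes were also among the lower calls. Tfrc, the transferrin receptor that takes up iron, had −0.02, 0.09, −0.43 and −0.34 with TCDD, against 0.74, 0.83, 0.44 and 0.63 with PeCDF. By this probe it was above DMSO on every PeCDF array and on 1 TCDD array. By a second probe it was at 0.77 in rat A and −0.13 in rat B with PeCDF, and at 0.03 and −0.90 with TCDD. The difference was −0.84 ± 0.13, 1.78-fold (limma adjusted p = 0.0249, session step −0.54), and −0.76 by the second probe. Tfrc was the 1 call of 21 heme and iron genes. Dusp1, a phosphatase that switches off MAP kinases, had −0.62, −0.72, −1.08 and −1.21 with TCDD, against 0.19, 0.22, −0.13 and −0.15 with PeCDF (−0.94 ± 0.15, adjusted p = 0.0287, session step −0.63). Foxa1, a pioneer factor of the liver, was lower, at −0.45 ± 0.07 (adjusted p = 0.0232). In the list of liver transcription factors (23 tested, median 0.01), 1 was called lower, Foxa1, and 1 higher, Pou3f1. Pou3f1 is best known from nerve-sheath cells, and the list was written with earlier results of these data known.

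The zinc finger genes Zfp354a (−0.96 ± 0.13) and Zfp189 (−0.84 ± 0.10) fell, as did Aldoart2 (−0.85 ± 0.16), listed as a retrogene copy of aldolase A, and the membrane protein gene Emp1 (−0.75 ± 0.12, second probe −0.57). Edem1, which targets misfolded proteins for degradation, was lower, at −0.41 ± 0.06 with a session step of −0.18, the 1 call of 22 unfolded protein response genes, whose median was −0.16. Anxa13, an annexin of polarised epithelia placed in the cholangiocyte list, was lower, at −0.59 ± 0.11, the 1 call of 16; the 5 defining cholangiocyte markers gave none.

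No gene was called in the lists of glutathione transferases (18 tested), the IGF axis (16), the circadian clock (16), retinoid metabolism (27), the cell cycle (28), Kupffer cells (18), stellate cells (18) or endothelial cells (13). In all 29 lists together 33 of the 570 genes tested were called, against 0.847% over all genes. All list members carry a symbol, and of the 15244 genes tested with a symbol 162 were called. The lists were written with earlier results of these data known, so these counts are a description.

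**Figure D4:**
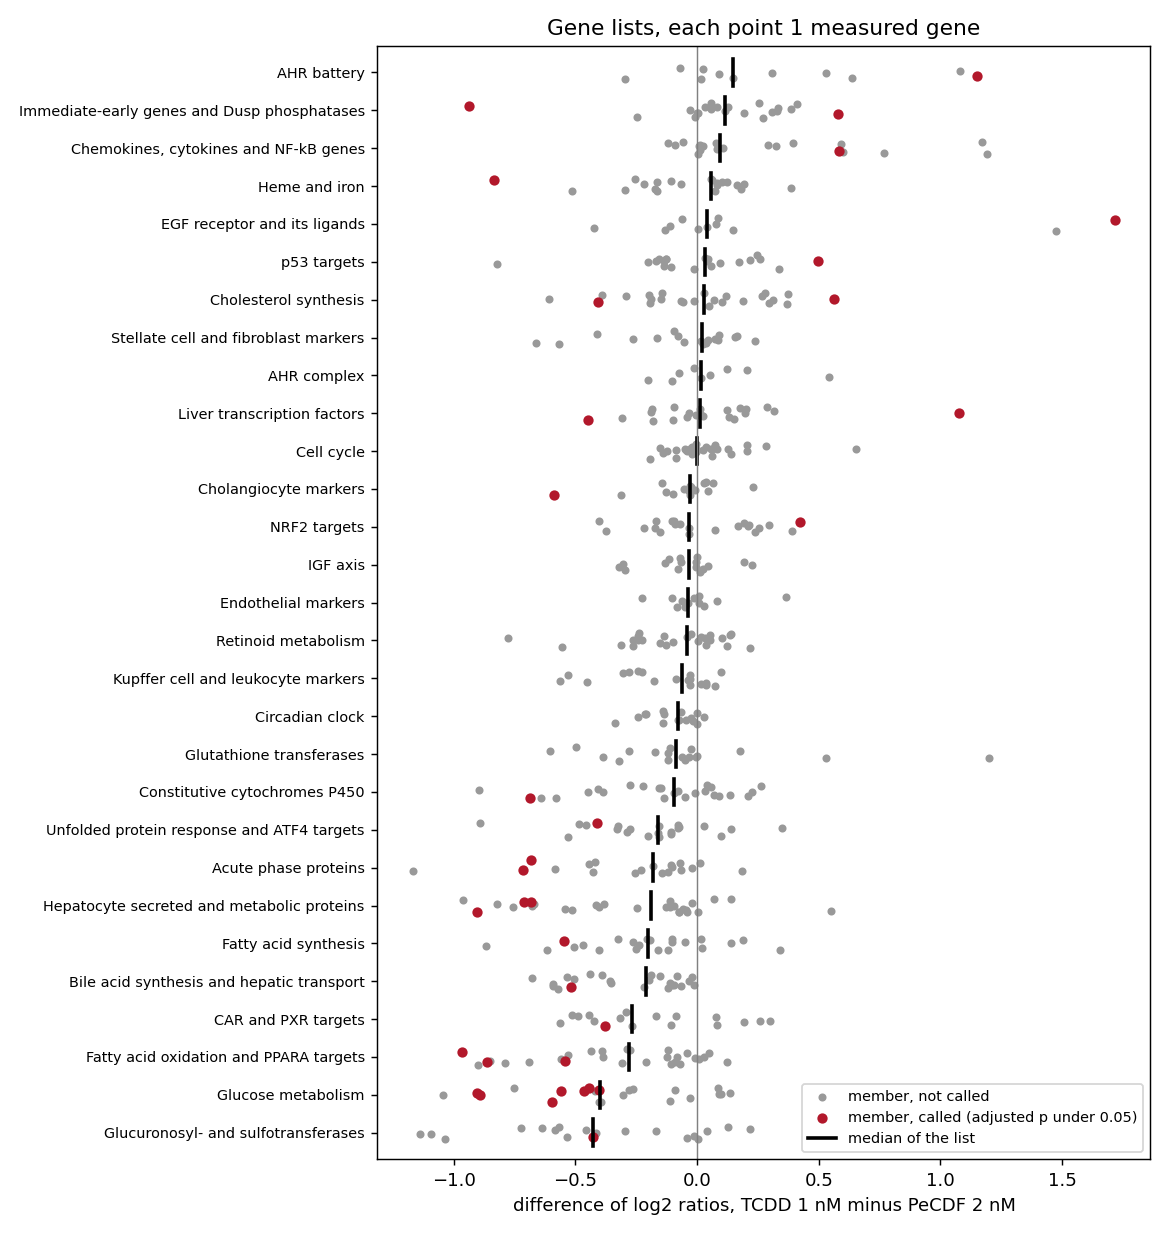
Difference, TCDD 1 nM minus PeCDF 2 nM (log2), of every gene tested in each list, 1 point per gene, called genes in red and the median of each list as a black bar. The glucose metabolism list holds 7 lower calls and a median of −0.40, against 0.00 over all genes.

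Comparisons at low dose and within sessions describe how far the differences could carry an offset between sessions. Untreated cells minus PeCDF 0.02 nM, which also spans the sessions, called 0 genes by limma (0%), with 2571 at an unadjusted p under 0.05, but 115 without rat A and 265 without rat B. TCDD 0.01 nM minus PeCDF 0.02 nM called 28 genes (0.0804%), all lower with TCDD, and 0 without rat A and 122 without rat B. Over the 156 genes higher with TCDD 1 nM, the median of untreated minus PeCDF 0.02 nM was 0.14, and over the 139 lower genes it was −0.06. These contrasts share their sessions, and possibly their DMSO RNA, with the difference itself.

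For the 156 higher genes the session step had a median of 0.33 beside 0.47 for the difference, and for the 139 lower genes −0.44 beside −0.47. Both measures hold the same TCDD 1 nM and PeCDF 2 nM values, so their likeness is a description. As a test of its own, the session step called 5 genes by limma, Pfkfb1 among them, and the matching step from the low dose of each compound called 6, again with Pfkfb1 (−0.93).

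**Figure D5:**
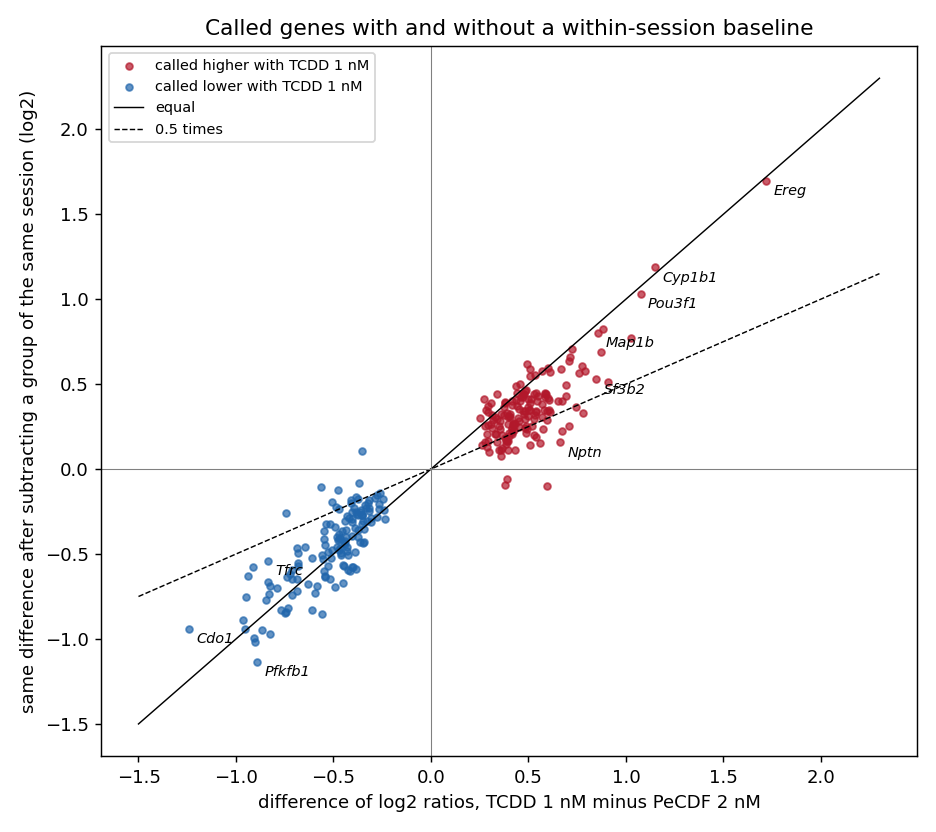
Session step (y axis, log2) against the difference TCDD 1 nM minus PeCDF 2 nM (x axis, log2) for the 295 called genes, with lines at equality and at 0.5 times. Lower genes have medians of −0.47 and −0.44 and higher genes of 0.47 and 0.33.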

How the data were processed

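RNA of rat hepatocytes was hybridised against DMSO RNA of the same rat on 28 two-colour Agilent arrays. Per the file headers, the deposited scanner files hold spot intensity written by Feature Extraction A.7.5.1; the submitters' processing notes name version 9.1. The deposited series table holds log10 ratios, which matched the scanner files' own log10 ratios turned to treated over DMSO within 4.995e-06.

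Mean spot intensities were corrected against the local background with normexp (offset 50) and normalised by loess within each array with the 2256 control spots at weight 0 (limma 3.58.1 in R 4.3.3). Flagged spots were dropped, spots of a probe averaged, ratios turned to treated over DMSO and both orientations averaged, giving 14 rat-level values in 7 groups. Where 1 orientation was missing the rat-level value was left missing, in 0.175% of cases. A probe was kept if well above background on all 4 treated channels of a group or on at least 14 of the 28 DMSO channels, which left 37824 of 41012. A gene took its brightest kept probe. Symbols came from the files or from RefSeq (GRCr8); 22505 probes matched none. No probe sequences were used here.

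One limma fit of all 7 groups gave the difference, with Benjamini-Hochberg adjustment over 34831 genes. Named genes were the 15 per direction with the largest difference among called genes with a symbol whose arrays did not overlap, up to 4 called members of each list, and the AHR battery. Members and lists were chosen with earlier results of these data known. The same 2 rats gave every group, so the rat pairs the samples: rat A minus rat B correlated between groups over 21 pairs of groups at −0.39 to 0.56 across genes (0.29 for TCDD 1 nM and PeCDF 2 nM), and a fit with the rat as block was run beside the main one. Other alternatives changed background correction, normalisation, filter, probe choice, marked spots, the groups fitted and the rats left out. Results for some genes are not reported here.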

Additional observations from a re-analysis of the deposited data

Results flagged for a closer look

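Of 118 groups of 4 arrays examined among the named genes, 6 held 1 array apart from the other 3. The cut-off sets apart about 1 in 20 groups of 4 independent values. The 4 arrays here are 2 rats in 2 dye orientations, so the share set apart by chance is not known. With TCDD 1 nM the arrays set apart were Sf3b2 at 0.44, Cyp1a2 at 2.26 and Abcb4 at −0.93. With PeCDF 2 nM they were Map1b at −0.080, whose nearest neighbour was −0.19, Sod2 at 0.41 and Nr1i2 at −0.22. In 3 AHR battery genes, both arrays of rat A lay on one side and both of rat B on the other, and the difference between the rats was not tested. Ugdh differed between TCDD and PeCDF by 0.26 in rat A and by −0.21 in rat B, a gap of 0.479. Nqo1 differed by 0.47 in rat A and by −0.61 in rat B, a gap of 1.09. Ugt1a6 differed by 0.09 in rat A and by −0.68 in rat B, a gap of 0.774.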

How the results depend on the processing

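The number of genes called depended on the processing. Named calls were chosen among genes whose arrays did not overlap between the compounds, so leaving out rats could not turn their sign. The fits with the rat as block, of the 2 groups alone or without TCDF 10 nM keep the same difference. A kept sign in these fits is therefore no test of direction. All 49 named calls kept their sign under each of 22 alternatives that gave them a value, and passed the threshold in 4 to 19 of them (median 10); Pfkfb1 passed in 19, not with median centring, with equal spread or with the 2 groups alone. Against 295 calls (156 higher, 139 lower), Agilent's own ratios and the series table each gave 7 (3 and 4), no background correction 182 with 61 lower, arrays scaled to equal spread 1 (1 and 0), dose steps 6 (4 and 2), session steps 5 (1 and 4), a fit without TCDF 10 nM 128 (73 and 55), and an added minimum of 1.5-fold 76 (37 and 39). One array of that group had a spread of 0.0322 (median absolute deviation), under that of every other array. Median centring and the fit of the 2 groups alone gave 0 calls by limma (0 and 0), with 1457 and 3760 genes at an unadjusted p under 0.05. The 28 arrays as samples with a dye term gave 3879 (1606 and 2273), counting each rat as more than 1 sample. With the rat as a paired replicate block, 428 genes were called, 241 higher and 187 lower, and 278 of the 295 were among them; this added calls and cost Gclm. Fits that left out rat A or B or 1 rat of 1 group, in which a lone rat is assumed to vary like the other groups, called 6 to 2295 genes, 2 to 564 higher and 2 to 1731 lower; without the TCDD values of rat A there were 2295, without rat A 774, without rat B 18, without the TCDD values of rat B 6, without the PeCDF values of rat A 6 and of rat B 89. Of the 22 glucose genes, 0 to 11 were called. The 4 leave-outs of 1 rat of 1 group and the fit without TCDF 10 nM were chosen after seeing the data.

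Untreated minus PeCDF 0.02 nM (0 calls) gave 6 with Agilent's ratios or the series table, 3 with no background correction, and 115 to 265 without 1 rat. TCDD 0.01 nM minus PeCDF 0.02 nM (28) gave 15 with Agilent's ratios, the series table or equal spread, 64 with no background correction, and 0 to 122 without 1 rat. Signs turned only among AHR battery genes that were not called. Ugdh turned to −0.014 with equal spread, −0.019 in dose steps and −0.020 in session steps, and ranged from −0.21 (without rat A) to 0.26 over fits that left out rats. Cyp1a2 turned to −0.14 with equal spread and −0.62 in dose steps, and ranged from −0.15 (without the TCDD values of rat B) to 0.18. Nqo1 turned to 0.23 in session steps and ranged from −0.61 to 0.47 (without rat B). Ugt1a6 turned to 0.054 in session steps and ranged from −0.75 to 0.15 (without the TCDD values of rat B). Tiparp ranged from −0.30 (without the TCDD values of rat A) to 0.92. The causes were not tested.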

Other observations

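Several further genes lay apart between the compounds without passing the limma test. Among macrophage genes, Vsig4, a complement receptor of Kupffer cells, had log2 ratios over DMSO of −0.30, −0.36, −0.64 and −0.63 with TCDD 1 nM, against 0.19, 0.11, −0.03 and −0.08 with PeCDF 2 nM (rat A +, rat A −, rat B +, rat B −). Marco, a scavenger receptor, had −0.16, −0.26, −0.06 and −0.17 with TCDD, against 0.33, 0.16, 0.02 and 0.04 with PeCDF. Their differences were −0.53 ± 0.12 and −0.30 ± 0.07, and the 11 Kupffer cell markers ranged from −0.56 (C1qc) to 0.08 (Clec4f), with Lyz2 at −0.45, Cd163 at −0.24 and Cd68 at 0.04. With a positive difference, Apob, the structural protein of very low density lipoprotein, had 0.59, 0.57, 0.47 and 0.47 with TCDD, against −0.09, −0.12, 0.06 and 0.05 with PeCDF, a difference of 0.55 ± 0.13. Its 4 other probes differed by 0.06, 0.13, 0.17 and −0.02, and on all 4 rat B lay below DMSO with TCDD, from −0.46 to −0.10. Klf4, a zinc finger factor, differed by 0.41 ± 0.10. Sesn1, a stress sensor of the p53 pathway, had −1.02, −1.05, −1.13 and −1.15 with TCDD, against −0.26, −0.43, −0.15 and −0.24 with PeCDF (−0.82 ± 0.17). None of these passed, and all were chosen after their values were seen.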
